A study of Mus musculus with 4 samples.

Results

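The region described here is the stretch of mouse chromosome 1 from 44 to 50 Mb (GRCm38) around Slc39a10, in replication profiles of embryonic stem cells with and without Snf2h. Its members are the 100 kb windows, spaced 25 kb, that start from 44000001 to 50000001 and have a value in all 4 libraries, which holds for 241 of 241 windows there, out of 109033 windows in the table. The stretch was picked because the profile in the window at 46800001 to 46900000, called the index window here, has opposite signs in the genotypes. The values of wild-type (WT) and knockout (KO) cells within it are therefore given as a description, and a fit over all autosomal windows is quoted for its counts only. All libraries came from the embryonic stem cell line 129S6/SvEvTac grown with serum and LIF on gelatin-coated plates, 2 from WT cells and 2 from cells labelled SNF2KO, which lack Snf2h. The genotypes were each cultured in duplicate. How the knockout was made, and whether it is a clone, is not given in the sources used here, and the profiles hold no expression values to check the cell type or the loss of Snf2h.

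Snf2h (Smarca5) is an ATPase of ISWI chromatin remodelling complexes, which slide and space nucleosomes. TrAEL-seq captures free 3′ ends of DNA, which replication forks carry, so the strand on which ends prevail at a place reports the prevailing direction of forks there. A profile of fork direction changes sign where forks set out in opposite directions and changes sign in the other sense where converging forks meet. The deposited value, called polarity here, is a signed score in points from -50 to 50, read here as the strand imbalance, and the strand counted as positive is not stated, so an upward change of sign is called a rise with no assignment to origins or termini. The table gives no read counts, so depth is unknown and the error of a value is the standard deviation (SD) between the libraries of a genotype.

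The index window holds a start of Slc39a10, which encodes the zinc importer ZIP10. RefSeq (GRCm38.p6) lists another start of the gene farther right, and the neighbouring Dnah7c, an axonemal dynein heavy chain gene, spans the place where the KO profile crosses 0. The 250 bases before these 3 starts are shown 5′ to 3′ on the strand of the gene, with CG dinucleotides in capitals. The sequence at the inner Slc39a10 start is chr1:46853619-46853868 and that at the outer start chr1:46925777-46926026, both on the minus strand, and that of Dnah7c is chr1:46425268-46425517 on the plus strand. The last 2 sequences were chosen after the values were seen.
Slc39a10, inner start: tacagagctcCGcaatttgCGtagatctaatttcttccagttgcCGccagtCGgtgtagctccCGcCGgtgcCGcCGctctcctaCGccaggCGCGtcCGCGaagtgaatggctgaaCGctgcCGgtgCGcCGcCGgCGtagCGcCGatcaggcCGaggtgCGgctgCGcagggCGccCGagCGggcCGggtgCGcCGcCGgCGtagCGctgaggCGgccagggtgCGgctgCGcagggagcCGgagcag
Slc39a10, outer start: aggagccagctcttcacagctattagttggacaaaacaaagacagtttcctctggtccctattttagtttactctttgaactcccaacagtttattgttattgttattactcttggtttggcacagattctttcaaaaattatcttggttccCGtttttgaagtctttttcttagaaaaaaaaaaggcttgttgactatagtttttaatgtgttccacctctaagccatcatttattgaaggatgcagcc
Dnah7c: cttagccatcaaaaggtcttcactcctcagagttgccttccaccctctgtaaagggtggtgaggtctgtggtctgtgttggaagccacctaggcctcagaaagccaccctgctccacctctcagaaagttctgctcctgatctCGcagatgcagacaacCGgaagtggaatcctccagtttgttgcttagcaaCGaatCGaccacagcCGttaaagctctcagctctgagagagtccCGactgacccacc

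The inner Slc39a10 promoter had 37 CG dinucleotides and 71.6% GC, and 2.22% of 32619 promoters held as many or more. The outer promoter had 1 CG dinucleotide and 35.6% GC, and 92.2% of all promoters had at least as many. Dnah7c had 6, which equals the median of all promoters. Of the 14 promoters listed for protein-coding genes of the region, TATAAA was found in 1, that of Col3a1, and in 12.4% of all promoters. CCAAT was found in 5 of the 14, and in 34.0% of all promoters. Both strands were searched, and these matches are a description of the letters. The 14 entries are not separate promoters, as Bivm and Slc39a10 are listed repeatedly and the Poglut2 entry overlaps entries of Bivm. The CCAAT match of Poglut2 and that of the first Bivm entry are the same site.

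At the index window, the WT libraries had a polarity of -15.9 points (replicate 1) and -7.22 points (replicate 2). The KO libraries had 17.5 points (replicate 1) and 17.7 points (replicate 2). Both WT libraries lay below 0 and both KO libraries above it. The WT mean of -11.5 ± 6.12 points and the KO mean of 17.6 ± 0.171 points (each with SD, n = 2) differed by 29.2 points against a pooled replicate SD of 4.33 points.

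The index window was part of an unbroken run of 9 overlapping windows, from 46625001 to 46925000, in which all libraries had the sign of their genotype. WT replicate 1 ranged from -18.3 to -4.50 points over the run with a median of -9.91. WT replicate 2 ranged from -15.6 to -2.56 points with a median of -10.9. KO replicate 1 ranged from 8.33 to 19.3 points with a median of 12.7, and KO replicate 2 from 5.65 to 18.2 points with a median of 15.2. The run covers the 3′ part of Dnah7c, which is on the plus strand, and nearly all of Slc39a10 (46807544 to 46925776). Neighbouring windows share most of their sequence, so the 9 windows are not separate measurements.

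**Figure D1:**
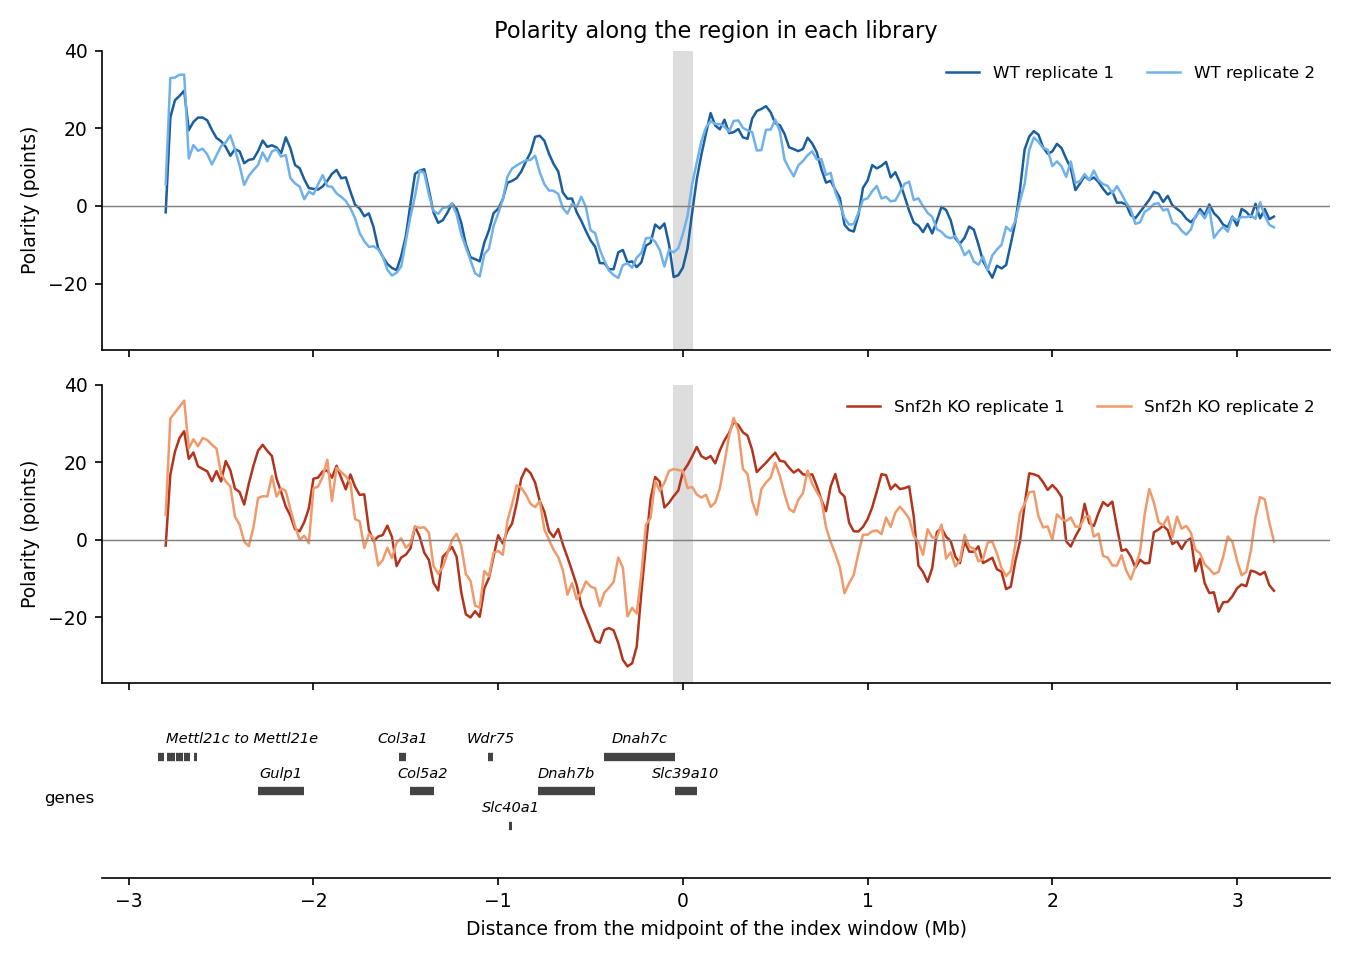
Polarity in points (vertical axis) of each 100 kb window along the region, against the distance in Mb from the midpoint of the index window, for the WT libraries (top) and the Snf2h KO libraries (middle), with the protein-coding genes below and the index window in grey. In the index window the WT libraries lie at -15.9 and -7.22 points and the KO libraries at 17.5 and 17.7 points.

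The change of sign in the index window went with a different position of the rise. On a running mean of 5 windows, WT polarity crossed 0 upwards at 46906180 in replicate 1 and at 46878527 in replicate 2. In KO it crossed at 46659292 in replicate 1 and at 46652518 in replicate 2. Both KO crossings lay at lower coordinates than both WT crossings, with a difference of -236 kb between the genotype means. The WT crossings were 27.7 kb apart and the KO crossings 6.77 kb apart.

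In gene terms, the mean WT crossing (46892354) lay inside Slc39a10, 33.4 kb from its outer start and 38.7 kb from its inner start. The mean KO crossing (46655905) lay inside Dnah7c, 198 kb from the inner and 270 kb from the outer start of Slc39a10. Dnah7c and the adjacent Dnah7b encode related dynein heavy chains, and how reads that align to both copies were handled is not given in the sources used here.

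The height of the rise overlapped between the genotypes. It was 35.7 points over 225 kb in WT replicate 1 and 33.2 points over 250 kb in WT replicate 2. In KO replicate 1 it was 41.9 points over 200 kb, above both WT libraries, and in KO replicate 2 it was 31.8 points over 225 kb, below both. In each of the 4 libraries it was the tallest rise centred in the region. Over the interval in which the mean WT profile rose (46800000 to 47025000), the running mean changed by 34.4 and 32.3 points in WT but by 10.3 and -4.75 points in KO. Over the interval in which the mean KO profile rose (46550000 to 46750000), it changed by 41.9 and 29.3 points in KO replicates 1 and 2, but by 4.91 and 3.68 points in WT.

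**Figure D2:**
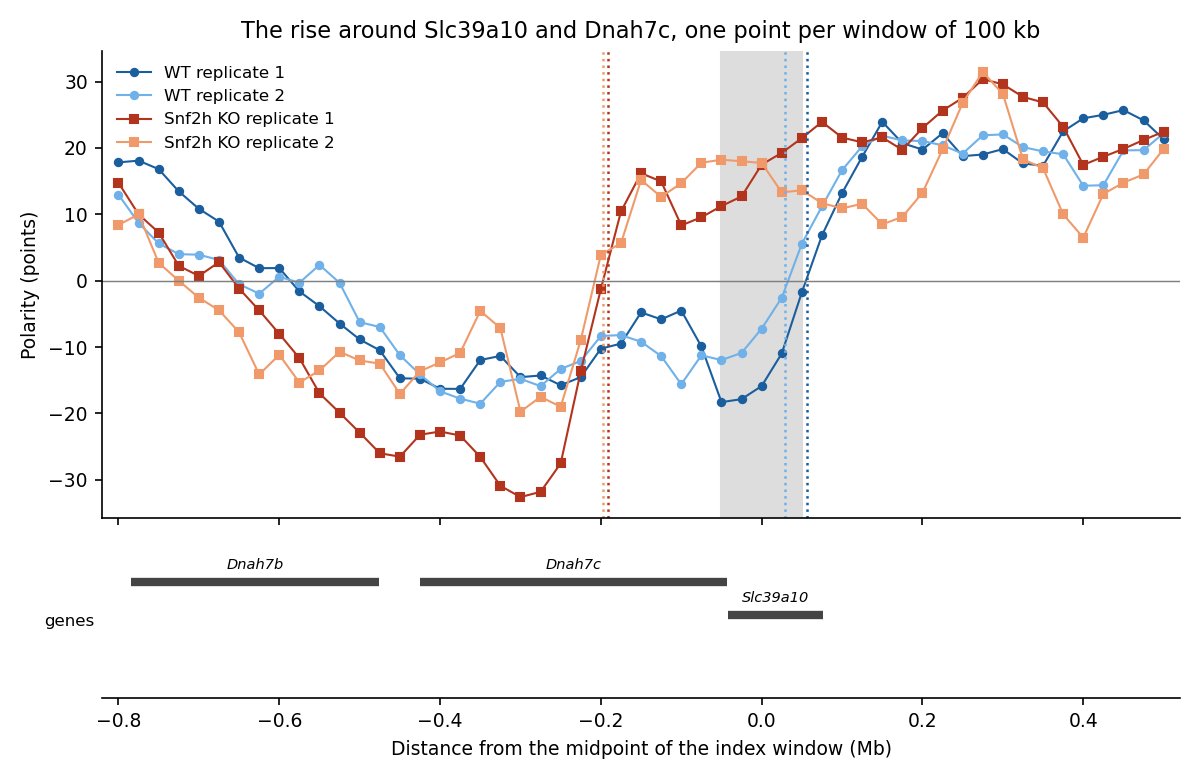
Polarity in points of each 100 kb window (1 point per window and library) around the rise, against the distance in Mb from the midpoint of the index window (grey), with Dnah7b, Dnah7c and Slc39a10 drawn below and dotted lines at the upward crossings of 0 on the running mean. The KO crossings lie within Dnah7c and the WT crossings within Slc39a10, with a mean difference of -236 kb.

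The fall that precedes this rise lay over Dnah7b. The WT profile crossed 0 downwards at 46254580 and 46277279, and the KO profile at 46175245 and 46132968. The KO mean differed from the WT mean by -112 kb, where the WT crossings were 22.7 kb apart and the KO crossings 42.3 kb. The crossing of WT replicate 2 is loosely placed. Its running mean was 0.186, 0.0376 and 0.0783 points in the windows centred from 46225000 to 46275000, barely above 0. The position of this fall was not computed under other settings. Of 1247 autosomal falls matched between the genotypes (nearest to each other in both directions, with the libraries of a genotype within 100 kb), 4.89% had moved by at least 100 kb and 3.21% by as much as this fall or more. Of 4 falls that both WT libraries had in the region, 1, this fall, had a KO counterpart by these rules, against 1247 of 1732 on the autosomes. The count depends on the limits set. Near the WT fall at 48109108, the KO profile crossed 0 downwards at 48118770 and 48149763, but no fall was called there in KO replicate 2. For the WT fall at 45064855, the KO crossings were 102.8 kb apart, just over the limit of 100 kb. Both KO libraries lay below both WT libraries in 12 consecutive overlapping windows from 46075001 to 46450000. Of autosomal windows, 22.5% were separated in this direction and 2.33% lay in runs of this length or longer. The difference there was greatest at 46250001 to 46350000, with -3.85 and 2.38 points in WT against -17.0 and -13.5 points in KO.

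The trough between the fall and the rise differed between the KO libraries. At 46500001 to 46600000, replicate 1 had -32.6 points, the lowest value of any library in the region, and replicate 2 had -19.7 points. The WT libraries had -14.5 and -14.8 points there. On the other side of the rise, KO replicate 1 was highest at 47075001 to 47175000. There the KO libraries had 30.4 and 31.5 points, both above the 19.0 and 21.9 points of the WT libraries, in a run of 3 windows separated in this direction. Nearer the rise, at 46950001 to 47050000, the KO libraries had 21.6 and 8.49 points, both below the 23.9 and 21.8 points of WT. Of autosomal windows, 22.2% had KO above WT in this way and 22.5% had it below.

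The positions of the other rises were then set beside that of the rise at Slc39a10. A rise was counted where the running mean climbed by at least 1 SD of that library's autosomal values. Of 5 rises that crossed 0 in the region in both WT libraries, 4 had a KO counterpart, against 76.8% of 2030 such rises on the autosomes. The counterpart is the nearest KO rise in both directions, with the KO libraries within 100 kb of each other. Among the matched autosomal rises, 1.35% (21 of 1559) had moved by at least 100 kb between the genotype means, and the median absolute shift was 12.3 kb. In the region 1 of 4 had done so, the rise that the region was picked for, and the other 3 had moved by at most 19.9 kb. On the autosomes, 8 of 1559 matched rises (0.513%) had moved as far as the rise at Slc39a10 or farther.

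The first of these 3 rises stood at the left edge of the region. WT crossed 0 at 44029539 and 43986700 and KO at 44043378 and 44012649, so that the libraries of the genotypes interleaved. It leads into a cluster of 7 protein-coding genes with Ercc5, the XPG endonuclease of nucleotide excision repair, and Poglut2, a protein O-glucosyltransferase. The second lay between Wdr75, which acts in ribosome biogenesis, and Slc40a1, the iron exporter ferroportin. It crossed at 45852155 and 45860836 in WT and at 45870825 and 45869578 in KO. Both KO crossings lay to the right of both WT crossings, by 13.7 kb on average.

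The third lay in the stretch without protein-coding genes, at 48657832 and 48661088 in WT and at 48668055 and 48652891 in KO. The crossings differed by 1.01 kb between the genotype means. Its height was 33.4 and 30.0 points in WT but 24.8 and 15.3 points in KO, so that both KO libraries lay below both WT libraries. In the trough before it, both KO values exceeded both WT values in 12 consecutive overlapping windows from 48250001 to 48625000, where 22.2% of autosomal windows were separated in this direction and 2.58% lay in runs as long. At 48450001 to 48550000 WT had -16.4 and -16.5 points and KO had -5.32 and -0.725.

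The distances between the matched rises, leaving aside those called in only some libraries, restate the shifts above, and those that begin or end at Slc39a10 use the crossing the region was picked for. From the rise at Wdr75 and Slc40a1 to the rise at Slc39a10, the distance was 1054 and 1018 kb in WT and 788 and 783 kb in KO. From there to the next matched rise, it was 1752 and 1783 kb in WT and 2009 and 2000.4 kb in KO. The distance between the first and the second rise was 1823 and 1874 kb in WT and 1827 and 1857 kb in KO, with the KO libraries between the WT libraries, although WT had another rise between these that had no KO counterpart.

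**Figure D3:**
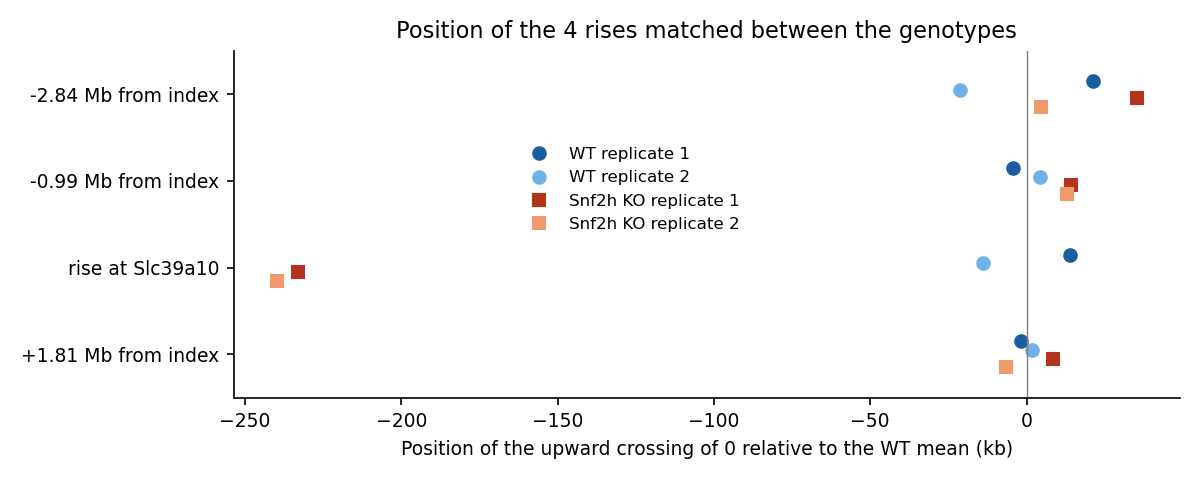
Position in kb of the upward crossing of 0 in each library relative to the mean WT crossing, for the 4 rises matched between the genotypes. The WT libraries are circles and the KO libraries squares, and at the rise at Slc39a10 the KO libraries lie at a mean of -236 kb, while no library of the other 3 rises lies beyond 35.3 kb.

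The WT rise without a KO counterpart lay over the collagen genes Col3a1 and Col5a2, which encode chains of fibrillar collagens. The WT profile crossed 0 there at 45378173 and 45391300, inside Col5a2. Over the interval of this rise (45275000 to 45425000), the running mean changed by 21.0 and 20.1 points in WT, but by only -0.153 and 4.62 points in KO. KO replicate 2 made its small upward crossing at 45349674, and KO replicate 1 made none nearer than 45870825. In the window nearest the Col3a1 start (45250001 to 45350000), WT had -16.6 and -17.2 points and KO had -6.77 and -0.781. In the window nearest the middle of Col5a2 (45400001 to 45500000), WT had 9.48 and 8.47 points and KO had -3.33 and 3.24. The KO libraries thus lay above WT on the Col3a1 side and below WT on the Col5a2 side, nearer to 0 than WT in both windows.

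From the end of Gulp1 into the collagen genes, both KO libraries exceeded both WT libraries in 21 consecutive windows from 44800001 to 45400000. Of all autosomal windows, 22.2% were separated in this direction and 0.371% lay in runs at least as long. The mean difference was 11.0 points. It was greatest at 45200001 to 45300000, with -14.9 and -16.4 points in WT against 3.66 and -2.04 points in KO. This stretch covers Col3a1 and the adjoining end of Col5a2, and most of it lies between them and Gulp1, an adaptor of the engulfment of dying cells. The WT profile crossed 0 downwards at 45096901 and 45032809 and the KO profile at 45248760 and 45146003, a mean of 133 kb farther right, with the KO crossings 102.8 kb apart.

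Polarity at the 15 protein-coding genes was read at the window nearest each start, or at the middle of the gene for the 4 genes with no start in the promoter table (Mettl21c, Mettl21e, Col5a2 and Slc40a1). The KO libraries lay above both WT libraries at Mettl21e, Col3a1 and Slc39a10 and below both at Col5a2. This is 3 and 1 of 15 genes, where 22.2% and 22.5% of autosomal windows were separated in these directions. At the outer Slc39a10 start WT had 6.82 and 11.2 points and KO had 23.9 and 11.7, so that KO replicate 2 was barely above WT replicate 2, while at the inner start, in the index window, the gap was wide.

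The window nearest the Ercc5 start, in the first cluster, had the highest polarity of the region in 3 of the 4 libraries. At Ercc5 it was 29.7 and 33.9 points in WT against 28.0 and 35.9 in KO, and the genotypes overlapped. At Gm8251, Tex30, Poglut2 and Bivm the libraries ranged from 16.8 to 34.3 points, and the genotypes overlapped at each. Mettl21c, at the left edge of the cluster, was lower, with -1.64 and 5.66 points in WT against -1.48 and 6.42 in KO. At Mettl21e, a member of the methyltransferase family of Mettl21c, WT had 21.7 and 15.7 points and KO had 22.5 and 25.9. The other genes lie farther along. At Gulp1 it was 14.1 and 10.5 points in WT against 23.0 and 10.8 in KO. Wdr75 had -6.28 and -11.0 points in WT against -9.81 and -9.40 in KO, and KO lay between the WT values. Slc40a1 had 6.46 and 9.64 points in WT against 4.17 and 9.12 in KO. At Dnah7b and Dnah7c the genotypes overlapped too, with mean differences of -3.40 and -3.98 points.

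Over all 241 windows, including those the region was picked on, the median absolute difference between genotype means was 4.10 points, and it was 4.45 points over 94694 autosomal windows. Both KO values exceeded both WT values in 61 windows (25.3%; 22.2% of autosomal windows) and were lower than both in 53 (22.0%; 22.5%). Opposite signs in all libraries occurred in 18 windows (7.47%; 4.24% of autosomal windows), in 8 runs, and the share was 17.8% without KO replicate 1 (10.1% of autosomal windows) and 14.5% without KO replicate 2 (7.74%). Outside the run of 9 windows at Slc39a10, no genotype mean in these runs was farther than 9.59 points from 0. A difference of at least 20 points was found in 8 windows (3.32%; 0.336% of autosomal windows), all of them between 46650001 and 46925000.

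Of the 61 windows spaced 100 kb, 1 had an adjusted p-value under 0.05 in the limma fit of KO against WT over 23672 autosomal windows, of which 0.0549% passed. It was the index window, higher in KO, and as the region was picked on this contrast nothing is read from the count. An unadjusted p-value under 0.05 was found in 8 of the 61 windows and in 12.2% of all windows. The count of 1 window became 3 with the replicate number as a block (4.92% of the 61 windows, against 2.66% of all windows) and 0 without WT replicate 1 (0.0338% of all windows). It was 5 without KO replicate 1 (8.20% against 5.79% of all windows) and 10 without KO replicate 2 (16.4% against 20.2%).

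**Figure D4:**
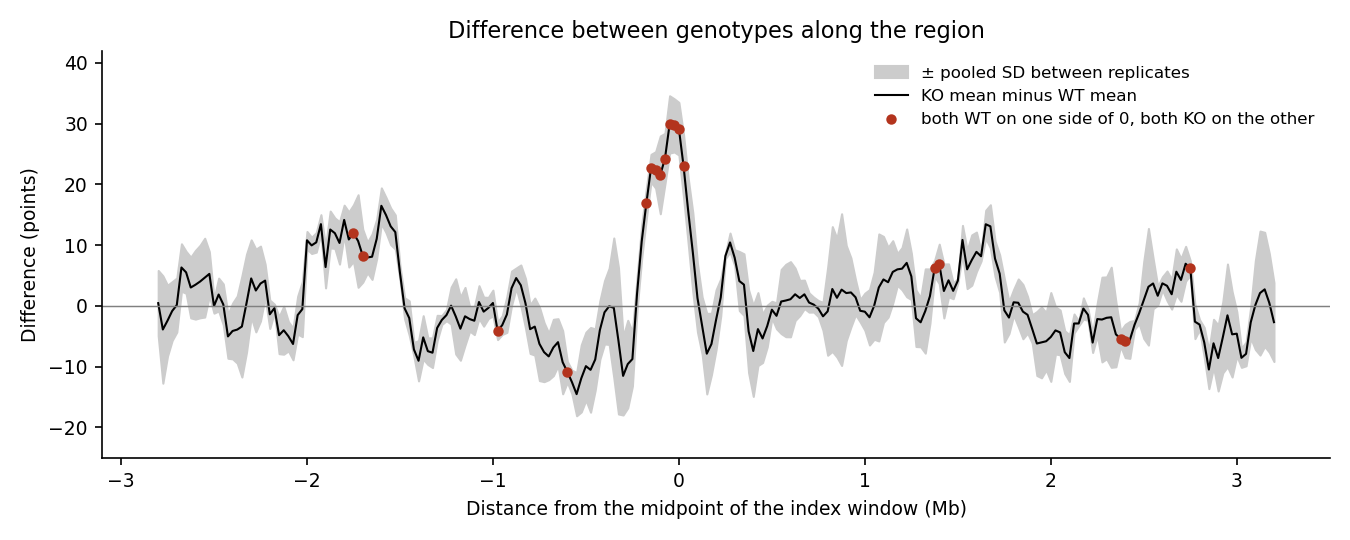
Difference in points between the KO mean and the WT mean in each 100 kb window (black line), with the pooled SD between replicates in grey, against the distance in Mb from the midpoint of the index window. Red points mark the 18 windows in which both WT libraries lie on the other side of 0 from both KO libraries, 9 of them around the index window.

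The part of the region beyond Slc39a10, which holds no protein-coding gene, had a flatter profile. The SD of polarity over its 123 windows was 10.5 and 9.71 points in WT against 12.0 and 8.53 in KO. Over the 118 windows that start before the end of Slc39a10 it was 12.3 and 12.1 points in WT against 15.2 and 12.7 in KO. The median absolute difference between the genotypes was 3.31 points beyond Slc39a10 and 5.09 points before that end, and the latter windows include those the region was picked on. In this stretch beyond Slc39a10, KO replicate 2 alone had rises that reached the minimum of 1 SD of its own profile from 47725000 to 48000000 (15.3 points) and from 49250000 to 49400000 (14.6 points). Smaller upward crossings lay near the former in both WT libraries, at 47805966 and 47822251, and near the latter in WT replicate 1 and KO replicate 1, at 49347590 and 49411055.

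Amplitude over the whole region was below that of the autosomes in every library. The SD of polarity was 11.4 and 10.9 points in WT against 13.7 and 10.8 in KO. Over autosomal windows it was higher, with 14.6 and 12.8 points in WT against 19.4 and 14.5 in KO. KO replicate 2 lay below both WT libraries in the region, so the difference of 1.02 points between genotype means was within the replicate SD of 2.06 points in KO, and it was -0.433 points without KO replicate 1 and 2.48 points without KO replicate 2. Pearson's r across the 241 windows, which overlap and come from the same libraries, was 0.932 for the WT pair and 0.800 for the KO pair, against 0.940 and 0.911 over autosomal windows. With the windows the region was picked on included, it lay between 0.686 and 0.756 for pairs of different genotype, where autosomal windows gave 0.864 to 0.917.

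At the edges of the region the profile ran on without a break. The window just outside on the left, from 43975001, had -7.21 and 0.895 points in WT against -8.74 and 2.17 in KO, and the first window inside had -1.64 and 5.66 points in WT against -1.48 and 6.42 in KO. The last window inside had -2.73 and -5.50 points in WT against -13.1 and -0.450 in KO, and the next window outside had -2.48 and -13.4 points in WT against -16.0 and -2.25 in KO. No value in the region was at the bound. Over the whole table, 7641 and 7717 windows had no value in WT and 8064 and 8249 had none in KO.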

How the data were processed

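TrAEL-seq profiles of 2 WT and 2 Snf2h KO libraries were read from a deposited table of 100 kb windows spaced 25 kb. Per the submitters' processing notes, the authors trimmed reads with Trim Galore 0.6.5 and aligned them with Bowtie2 2.4.1 to GRCm38. Per the file headers, an rRNA sequence was included and reads were deduplicated in each library. The deposited value is a signed score from -50 to 50 points, read here as a strand imbalance. Its program, its sign convention and any minimum of reads are not given in the sources used here. Groups and replicate numbers come from the labels, and the label and the file header give different index sequences for WT replicate 2.

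Analyses used autosomal windows of full length with a value in all 4 libraries. limma 3.58.1 in R 4.3.3 was fitted on 23672 windows spaced 100 kb, p-values adjusted by Benjamini-Hochberg and called under 0.05, and was tested on simulated data. Rises and falls run between neighbouring extrema of a running mean over 5 windows and were kept where the change reached 1 SD of that library over the autosomes, and their ends are midpoints of windows. Crossings of 0 were interpolated linearly. Named were the index window, runs of opposite sign, library extremes, rises and all protein-coding genes starting in the region. The members and lists were chosen with earlier results of these data known. Promoters are the 250 bases before each start. Python 3.11.15, numpy 2.4.6, pandas 2.3.3 and matplotlib 3.10.9 were used.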

Additional observations from a re-analysis of the deposited data

How the results depend on the processing

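The rise at Slc39a10 lay at lower coordinates in KO under every alternative run. The shift of -236 kb lay between -246 and -230 kb without a running mean, averaging 3 windows, after centring and at crossings of -5 or 5 points, moved to -214 kb when 9 windows were averaged, and ranged from -250.3 to -223 kb when each library was left out. These alternatives were chosen after seeing the data. The difference at the index window was 25.5 to 29.2 points under the alternatives run and 24.8 to 33.5 points with a library left out. Centring could not move a value, because the median of every library was 0. The number of windows in the region that passed in limma was 1. It was 3 with the replicate block, 3 with the block and standardising, 3 over overlapping windows, 3 with the trend and robust options, and 0 on the atanh scale, where 9 of the 61 windows had an unadjusted p-value under 0.05. Over all 23672 windows limma called 13, against 630 with the replicate block, 90 standardised, 654 with both, 0 on the atanh scale (2655 with an unadjusted p-value under 0.05), 72 of 94694 overlapping windows and 302 with trend and robust. In the region, without WT replicate 1 it was 0 (4 with an unadjusted p-value under 0.05), without KO replicate 1 it was 5 and without KO replicate 2 it was 10, against 8, 1371 and 4790 over all windows, and 1 against 7 without WT replicate 2. The deviations of same-numbered libraries correlated at 0.241, and the labels do not say that the numbers pair the libraries. The share of windows with opposite signs was 3.73% when both means had to lie at least 5 points from 0 (0.790% of autosomal windows), and 9.96% to 17.8% with a library left out (7.31% to 10.1%), the highest without KO replicate 1. The median absolute difference was 3.46 points on the running mean and 4.12 to 5.53 points with a library left out. The difference in SD of polarity reversed to -1.47 points after standardising and ranged from -0.433 points without KO replicate 1 to 2.48 points without KO replicate 2. The genotype difference in the number of rises was 0, with 1.5 at a running mean of 3 windows, 2.5 at a minimum of 0.5 SD and -1 to 1 with a library left out. Causes were not tested. The absence of read counts limits every value to the spread between 2 libraries.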
